A study of Mus musculus with 12 samples.

Results

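CD4 T effector cells recovered from the pancreatic islets were compared with those recovered from the spleen of the same recipient mice, for cells of WT origin. The members were the 6 libraries whose titles name pancreas or spleen and a mouse from WT-1 to WT-3, of 12 libraries in the series, so that each of 3 mice gave 1 islet and 1 spleen library. The donors, per the labels, were NOD females (a strain that develops autoimmune diabetes) aged 6 to 8 weeks and immunised with Insulin C19A. Their splenocytes were cultured for 2 weeks with 10 µM peptide, named InsB9-23 in the design text, and magnetically purified CD4+ cells (over 95% pure, under 1% Foxp3+) were put into female NOD.scid mice of 8 to 10 weeks at 5 M cells each. The other 6 libraries came from NOD.InsY16A Tg donors, which carry an insulin transgene altered at a residue that T cell receptors contact, handled in the same way. NOD.scid mice lack T and B cells of their own but keep neutrophils, macrophages, red cell precursors and the whole pancreas. The purification was done before transfer. A sort of the recovered cells and the time from transfer to recovery are not given in the sources used here. Nor is it given whether the 3 recipients received cells of the same expanded line. The p-values thus measure only the spread between recipients in the islet minus spleen difference, pooled over both origins. In the labels' genotype entry all islet libraries read NOD and all spleen libraries NOD.Y16A; this contradicts the titles and the design text, and the groups were taken from the titles.

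A CD4 effector cell that enters an inflamed tissue is known to meet antigen there again, and antigen receptor signals reach the nucleus through the MAP kinase, NF-kappaB and calcium pathways. They switch on immediate early genes within minutes and then cytokines, chemokines, inhibitory receptors and feedback inhibitors. Cells that circulate through lymphoid organs keep a different set, with the chemokine receptor Ccr7 for entry into lymph nodes and S1pr1 for leaving them. Insulin-reactive CD4 cells of NOD mice that make interferon gamma are a well studied cause of islet inflammation. Whether antigen signals acted in the cells compared here was not tested.

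The values were FPKM, that is fragments per kilobase of transcript and per M mapped fragments, summed over a gene's transcripts. Depth was estimated from the spacing of low FPKM values and came to 4.59 to 7.75 M mapped fragments in the 6 libraries. The fit to that spacing, which is 1 for values on whole steps, was only 0.244 to 0.371. The depth is therefore a rough estimate. In each library 7450 to 8603 genes reached 1 FPKM. At the estimated depth 3 fragments on a transcript of 1500 bases correspond to 0.258 to 0.436 FPKM. Lower values thus rest on a few fragments, a limit that covers counting error only. Across genes, Pearson correlations of log2 values were 0.853 to 0.884 among the islet libraries, 0.828 to 0.861 among the spleen libraries and 0.796 to 0.852 between tissues; genes are not independent replicates.

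The T cell label held on its defining markers. Cd3e, a signalling chain of the T cell receptor complex, was 266, 282 and 420.0 FPKM in the islet libraries of mice 1, 2 and 3 and 204, 297 and 267 FPKM in their spleen libraries. Cd4, the coreceptor of helper cells, was 64.1, 69.4 and 117 FPKM in islet and 66.0, 92.6 and 91.8 FPKM in spleen. Cd8a, the coreceptor of the other T cell class, stayed between 0 and 2.82 FPKM in all 6 libraries. None of the 15 T cell receptor complex and proximal signalling genes passed the test, and their median log2 change was -0.09.

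The islet cells had more RNA of Ifng, of the chemokines Ccl4 and Ccl5, of the immediate early genes Fos, Jun and Junb, of the inducible chaperones Hspa1a and Hspa1b, of the inhibitory receptors Ctla4 and Pdcd1 and of the residency-associated regulators Rgs1 and Bhlhe40. The islet libraries had less RNA of the homing genes Ccr7 and Fut7, of Dapl1, Dtx1 and Trib2, and of Ifitm1 and Ifitm2. The part of non-T cells in these changes, higher or lower, was not tested. Of 10081 genes tested, 90 (0.893%) were called at an adjusted p under 0.05, of which 73 (0.724%) were higher and 17 (0.169%) lower in islet. The test was limma on log2(FPKM + 1) with the mouse as a block, Benjamini-Hochberg adjusted over all genes. It was fitted to all 12 libraries, so standard errors and p-values draw on the spread in both origins. Without adjustment 991 genes had p under 0.05, 712 higher and 279 lower. All 90 called genes changed in the same direction in the 3 mice, against 26.4% of all genes. In 89 of them islet and spleen values were fully apart, as in 11.4% of all genes, and the exception was Csf2. Both traits follow largely from the call, which used the same differences, and are no separate support for it. Spleen values were listed at 0 throughout for 24 of the higher genes, and islet values for 5 of the lower genes. Of the 73 higher genes 25 were fixed markers of pancreatic acinar, duct or endocrine cells. Of the 17 lower genes 6 were neutrophil or erythroid markers. This left 48 higher and 11 lower genes outside the marker lists of other cells. The 48 still hold the pancreatic genes Ctrc, Amy2b and Reg3g, so they are no count of T cell genes. When FPKM totals were rescaled without the pancreatic markers, 62 higher and 29 lower genes were called, which lowered the share of higher calls from 81.1% to 68.1%.

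Log2 changes below are islet minus spleen on the log2(FPKM + 1) scale. Those for WT origin are given after subtraction of their median change (0.16) over genes with a mean above 5 FPKM. All are compressed for genes at low FPKM. The standard error had a median of 0.50 over all genes and 0.28 over genes with a mean above 50 FPKM. Because tissues were compared within a mouse, leaving out either library of a mouse takes its pair away. Leave-out values below are adjusted p values without the islet library of the mouse named, and 28 of the 57 called genes among those named by rule kept their call in all 3 such fits. Under all 18 alternative settings run, 21 of the 57 kept it, among them Ifng, Rgs1, Fos, Jun, Junb, Dusp1, Nr4a1, Ppp1r15a, Hspa1a, Hspa1b and Penk. In bulk libraries, fewer cells of a type and less RNA per cell cannot be told apart. Each tissue came with its own recovery of cells, so tissue and recovery steps cannot be told apart in this design.

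**Figure D1:**
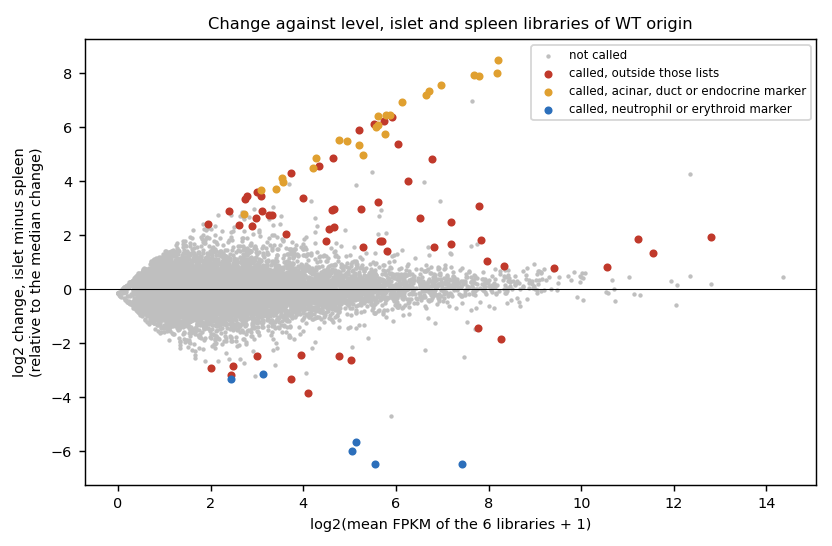
Each point is a gene, with the log2 of its mean FPKM + 1 over the 6 libraries on the x axis and its log2 change, islet minus spleen, on the y axis. Called genes (coloured) include a band of acinar, duct and endocrine markers at the top, 48 other higher genes, 11 other lower genes and 6 neutrophil or erythroid markers at the bottom.

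Effector cytokines came first among the groups ordered by role. Ifng, which encodes interferon gamma, the hallmark cytokine of type 1 helper cells, was 120.0, 128 and 182 FPKM in the islet libraries of mice 1, 2 and 3 and 3.84, 13.6 and 5.92 FPKM in their spleen libraries. Every islet library exceeded every spleen library, and the gene rose by a log2 change of 4.02 (SE 0.36, n = 3 mice, limma adjusted p 1.68e-05). Csf2, which encodes the myeloid growth factor GM-CSF, was 19.1, 20.6 and 5.62 FPKM in islet and 0, 5.81 and 0 FPKM in spleen. Its islet value in mouse 3 lay just under its spleen value in mouse 2, and its call (adjusted p 0.026) was lost without mouse 1 (0.28) or mouse 3 (0.156) and without the block (0.262). These were 2 of 12 tested effector cytokines, none was called lower, and the median log2 change of the 12 was 0.80 against -0.06 for all genes. Il10, an anti-inflammatory cytokine, was 1.06, 0.878 and 10.9 FPKM in islet and listed at 0 in every spleen library, and it did not pass (adjusted p 0.256). Tnf, an inflammatory cytokine, did not pass either (log2 change 0.31, adjusted p 0.851), and Il3, Il5, Il13 and Il17a, cytokines of other helper classes, were listed at 0 in all 6 libraries.

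Chemokine ligands formed the list with the highest median outside the marker lists of other cells, 2.72 over 7 tested members, all of them positive. The part of non-T cells in this list was not tested. Ccl5, which attracts T cells and monocytes, was 2722, 4037 and 4599.7 FPKM in islet and 517, 1119 and 1355 FPKM in spleen. It rose by a log2 change of 1.85 (SE 0.21, adjusted p 9.66e-05). Ccl4, a chemokine released by activated T cells, was 445, 300.4 and 455 FPKM in islet and 28.1, 37.8 and 65.0 FPKM in spleen. The groups were well apart, and the log2 change was 3.07 (SE 0.46, adjusted p 0.0043), though without mouse 1 the adjusted p was 0.0563. Ccl3 was 48.6, 53.1 and 151 FPKM in islet and 1.58, 15.5 and 23.0 FPKM in spleen, and Xcl1, a ligand for cross-presenting dendritic cells, was 188, 179.6 and 148 FPKM and 0, 23.4 and 37.7 FPKM. Neither passed (adjusted p 0.288 and 0.62), although in both genes every islet value exceeded every spleen value; the standard errors were 0.87 and 2.01. In a blocked fit of the 6 WT origin libraries alone, Ccl3 passed (adjusted p 0.00578).

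Among 14 chemokine receptors 1 was called higher and 1 lower, with a median log2 change of -0.07. Cxcr4, the receptor of the stromal chemokine Cxcl12, was 7.25, 10.9 and 20.3 FPKM in islet and 0.785 to 0.959 FPKM in spleen. It rose by a log2 change of 2.62 (SE 0.50, adjusted p 0.0144), a call lost without mouse 2 (0.0924) or mouse 3 (0.166). Cxcr6, found on tissue-resident T cells, was 201, 153 and 268 FPKM in islet and 62.8, 117 and 48.4 FPKM in spleen (log2 change 1.34, adjusted p 0.0589), and Ccr8, found on skin-homing and regulatory cells, was 33.8, 52.7 and 67.8 FPKM and 13.3, 10.6 and 19.9 FPKM (1.58, adjusted p 0.0589). Both missed the threshold with values that did not overlap, and Cxcr6 passed without mouse 2 (0.0063). Cxcr3, the receptor of type 1 helper cells for interferon-induced chemokines, was 129.7, 136 and 243 FPKM in islet and 131, 143 and 134 FPKM in spleen (log2 change 0.10, adjusted p 0.839).

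Among the immediate early transcription factors, 3 subunits of AP-1 were called higher in islet. Fos, a partner of the AP-1 factor, was 83.9, 92.7 and 206 FPKM in islet and 2.07, 0.856 and 1.86 FPKM in spleen (log2 change 5.39, SE 0.40, adjusted p 3.78e-06). Jun, its dimer partner, was 23.1, 24.8 and 67.1 FPKM in islet and 0.153, 1.08 and 0 FPKM in spleen (4.55, SE 0.49, adjusted p 9.49e-05). Junb, a further AP-1 subunit, was 156, 222 and 374 FPKM in islet and 25.1, 50.5 and 40.3 FPKM in spleen (2.47, SE 0.27, adjusted p 9.49e-05). In all 3 genes mouse 3 had the highest islet value. They were the called members among 15 tested, of which 13 were positive, and the list's median was 0.97. Egr1 (0.97, adjusted p 0.481) and Ier2 (0.53, adjusted p 0.462), other genes of the same early wave, did not pass. The summed FPKM of the list was 525, 613 and 1105 in islet and 173, 249 and 205 in spleen.

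A few genes of negative feedback were called. Dusp1, a phosphatase that switches off MAP kinases, was 71.5, 76.1 and 122 FPKM in islet and 0, 0 and 0.452 FPKM in spleen (log2 change 6.13, SE 0.43, adjusted p 2.32e-06). It was the 1 called of 8 MAP kinase phosphatase and Sprouty genes (median 1.46); Dusp2, a nuclear relative, was 51.0, 72.7 and 126 FPKM and 23.9, 39.4 and 19.8 FPKM without passing (adjusted p 0.251). Nfkbia, the inhibitor that holds NF-kappaB in the cytoplasm, was 169, 202 and 306 FPKM in islet and 35.6, 80.5 and 75.4 FPKM in spleen (1.69, SE 0.25, adjusted p 0.00136). Tnfaip3, the enzyme A20 that ends NF-kappaB signalling, was 12.8, 20.1 and 53.0 FPKM in islet and 0.484, 1.72 and 1.56 FPKM in spleen (3.37, SE 0.43, adjusted p 0.000532; 0.109 in a fit per transcript). Islet and spleen values did not overlap in either inhibitor, and these 2 were the called members of 12 NF-kappaB genes, 11 of them positive (median 0.58), where Nfkbid, a nuclear inhibitor of the family, did not pass (0.55, adjusted p 0.615). Ppp1r15a, a phosphatase subunit of the stress response, rose from 2.95, 4.23 and 4.34 FPKM in spleen to 30.9, 29.3 and 68.8 FPKM in islet (2.93, SE 0.38, adjusted p 0.000562). Gadd45b, a stress sensor upstream of the p38 kinase, was 49.4, 80.8 and 131 FPKM in islet and 7.08, 15 and 2.73 FPKM in spleen (3.22, SE 0.55, adjusted p 0.00959), and lost its call without mouse 3 (0.0777). Ppp1r15a and Gadd45b were the 2 called of 10 mRNA decay and antiproliferative early genes (median 0.64), where Zfp36 (0.51, adjusted p 0.606) and Btg2 (0.51, adjusted p 0.656), an mRNA decay factor and an antiproliferative gene, did not pass.

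Among the heat shock chaperones, the Hsp70 genes Hspa1a and Hspa1b had the largest change. Hspa1a, an inducible Hsp70, was 78.5, 132 and 144 FPKM in islet and 0.352, 0.324 and 0.104 FPKM in spleen (log2 change 6.37, SE 0.38, adjusted p 8.47e-07). Hspa1b, its near-identical copy, was 58.2, 120.3 and 136 FPKM in islet and 0.175, 0.389 and 0 FPKM in spleen (6.25, SE 0.40, adjusted p 1.4e-06). The pair lies side by side at chr17:34969359-34972156 and chr17:34956429-34959238 (RefSeq, GRCm38.p6) and shares most of its sequence, so the split of reads between the copies is uncertain while the direction is the same for both. Dnajb1, a cochaperone of Hsp70, was 23.0, 31.8 and 49.8 FPKM in islet and 7.82, 9.46 and 6.46 FPKM in spleen (1.80, SE 0.38, adjusted p 0.0246). Its call was lost without mouse 1 (0.0628), mouse 2 (0.0914) or mouse 3 (0.215), and with the WT origin libraries alone (0.0644). Hspa8, the constitutive Hsp70, was 4.01, 8.05 and 16.6 FPKM in islet and 2.36, 8.2 and 4.03 FPKM in spleen and did not pass (0.63, adjusted p 0.638). In all, 3 of 15 chaperone genes were called, 13 were positive and the median was 0.70.

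Short stretches of promoter are shown for 5 of these genes, because the motifs of the factors known to drive them, in stress, MAP kinase or NF-kappaB signalling, were found there by a search. Each is the 250 bases before the gene's start in RefSeq (GRCm38.p6), on the minus strand, 5′ to 3′, with the motif in capitals: a heat shock element (GAANNTTC) in Hspa1a at chr17:34972157-34972406, a CRE (TGACGTCA) in Dusp1 at chr17:26508473-26508722 and in Ppp1r15a at chr7:45526269-45526518, and an NF-kappaB site (GGG, any 2 bases, TTTCC, here as its reverse complement) in Nfkbia at chr12:55492648-55492897 and in Tnfaip3 at chr10:19015411-19015660.
Hspa1a: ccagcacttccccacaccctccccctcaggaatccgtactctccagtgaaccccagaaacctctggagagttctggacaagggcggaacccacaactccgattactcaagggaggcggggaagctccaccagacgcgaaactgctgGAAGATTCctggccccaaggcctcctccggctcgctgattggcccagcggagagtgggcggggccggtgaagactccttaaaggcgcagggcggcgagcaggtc
Dusp1: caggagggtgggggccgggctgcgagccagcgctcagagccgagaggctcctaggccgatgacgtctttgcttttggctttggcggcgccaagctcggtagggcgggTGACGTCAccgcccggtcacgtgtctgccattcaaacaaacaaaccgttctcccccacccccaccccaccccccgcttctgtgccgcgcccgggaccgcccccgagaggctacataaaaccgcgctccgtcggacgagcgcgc
Ppp1r15a: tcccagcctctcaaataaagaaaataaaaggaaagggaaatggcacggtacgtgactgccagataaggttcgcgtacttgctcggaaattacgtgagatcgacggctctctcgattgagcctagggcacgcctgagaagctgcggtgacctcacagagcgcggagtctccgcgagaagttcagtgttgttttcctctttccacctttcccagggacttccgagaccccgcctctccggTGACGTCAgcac
Nfkbia: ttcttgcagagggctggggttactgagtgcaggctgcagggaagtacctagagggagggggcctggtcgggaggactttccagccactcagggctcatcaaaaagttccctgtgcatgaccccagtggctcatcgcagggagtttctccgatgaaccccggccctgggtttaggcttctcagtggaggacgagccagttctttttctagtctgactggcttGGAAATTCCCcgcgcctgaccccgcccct
Tnfaip3: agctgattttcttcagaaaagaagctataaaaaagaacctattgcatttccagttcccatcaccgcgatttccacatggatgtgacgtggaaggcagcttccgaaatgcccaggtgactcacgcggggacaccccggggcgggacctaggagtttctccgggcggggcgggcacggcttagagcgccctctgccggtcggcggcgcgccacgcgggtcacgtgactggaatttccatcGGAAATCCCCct
The motifs end 97, 136, 5, 20 and 3 bases before the start in the order shown. Of the 48 genes called higher outside the marker lists, 33 had a promoter in the table, as did 8112 of the genes tested, and both strands were searched. A heat shock element was in 6 of the 33 (18.2%; Ctla4, Cxcr4, Hspa1a, Hspa1b, Jun and Reg3g), in 5.13% of the promoters of tested genes and in 6.78% of all 27025 promoters. A CRE was in 2 (6.06%, Dusp1 and Ppp1r15a) against 2.77% and 1.62%, and the NF-kappaB motif in 2 (6.06%, Nfkbia and Tnfaip3) against 1.36% and 1.4%. The AP-1 motif TGANTCA was in 2 (6.06%, Bcl2a1b and Tnfaip3) against 4.25% and 6.87%, the Egr motif GCGTGGGCG in 2 (6.06%, Bcl2a1b and Plekhf1) against 0.949% and 0.54%, and the serum response element in 0 against 1.15% and 1.4%. Among 9 promoters of the 11 lower genes, 1 (Gpr15) held the AP-1 motif and none held the others. The 5 promoters were shown because they held a motif, so they are no separate support for a role of these factors. Among the 6 genes with a heat shock element, Hspa1a and Hspa1b are near-identical copies. These matches describe letters in a fixed window, and binding was not measured.

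**Figure D2:**
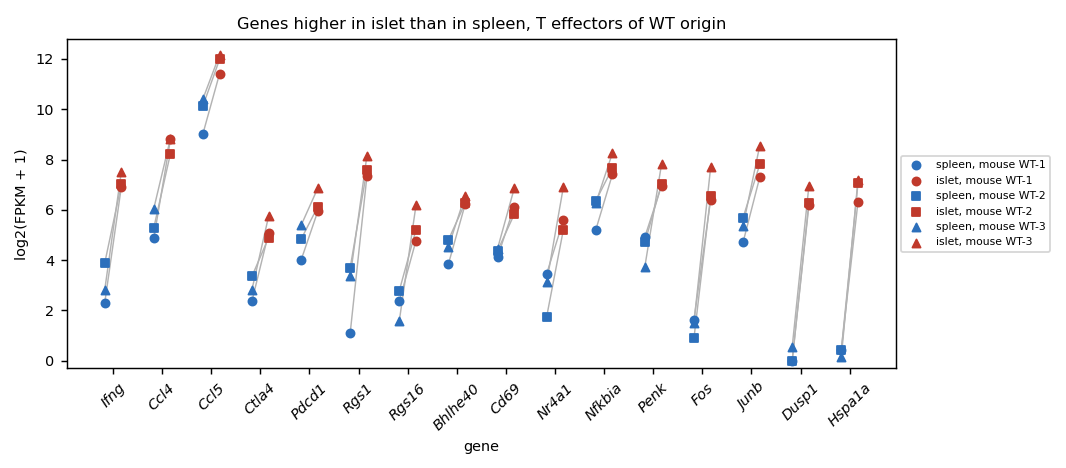
Points are log2(FPKM + 1) per library for 16 called genes, spleen in blue and islet in red, with a line joining the libraries of a mouse and a marker shape for each mouse. Every line slopes upward, and for Dusp1 and Hspa1a the spleen points lie near 0.

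Of the antigen signal genes, Nr4a1 and Cd69 were called higher in islet. Nr4a1, an orphan nuclear receptor induced by T cell receptor signals, was 46.8, 35.7 and 118 FPKM in islet and 9.92, 2.34 and 7.63 FPKM in spleen (log2 change 2.97, SE 0.39, adjusted p 0.000658). Its relatives Nr4a2 (1.59, adjusted p 0.321) and Nr4a3 (0.31, adjusted p 0.868) did not pass. Cd69, an early activation antigen that also holds T cells in tissue by opposing S1pr1, was 68.7, 55.5 and 114 FPKM in islet and 16.4, 19.6 and 20.9 FPKM in spleen (1.80, SE 0.33, adjusted p 0.00855). The call of Cd69 was lost without mouse 1 (0.0763) or mouse 3 (0.107). These were 2 of 13 antigen signal genes, of which 10 were positive and 3 negative (median 0.77).

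Ctla4, an inhibitory receptor that competes for costimulatory ligands, was 32.9, 28.8 and 52.9 FPKM in islet and 4.19, 9.24 and 6.10 FPKM in spleen (log2 change 2.24, SE 0.38, adjusted p 0.00638). Pdcd1, the receptor PD-1, was 60.4, 68.8 and 115 FPKM in islet and 15, 27.4 and 40.6 FPKM in spleen (1.42, SE 0.30, adjusted p 0.0226). Values of neither gene overlapped between tissues. The call of Ctla4 was lost without mouse 1 (0.076) or mouse 3 (0.0842), and that of Pdcd1 without any of the 3 (0.216, 0.0743 and 0.117), without the block (0.0611) and with the WT origin libraries alone (0.0519). They were the 2 called of 12 genes in the inhibitory list (median 0.89), where Tigit (1.32, adjusted p 0.384), Lag3 (1.13, adjusted p 0.395) and Tox (0.12, adjusted p 0.944) did not pass. None of 10 costimulatory receptors was called; Tnfrsf4, the receptor OX40, was 141, 152 and 135 FPKM in islet and 58.2, 81.8 and 74.4 FPKM in spleen (0.84, adjusted p 0.093).

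Rgs1, which dampens chemokine receptor signalling and is high in resident T cells, was 159.6, 190.2 and 282 FPKM in islet and 1.14, 12.0 and 9.19 FPKM in spleen (log2 change 4.81, SE 0.43, adjusted p 2.94e-05). Rgs16, a related regulator, was 26.4, 35.9 and 71.7 FPKM in islet and 4.12, 5.89 and 2.00 FPKM in spleen (2.99, SE 0.52, adjusted p 0.00855), a call lost without mouse 3 (0.122). They were the 2 called of 7 RGS genes, and Rgs2 (2.37, adjusted p 0.0953) missed the threshold but passed with the WT origin libraries alone (0.036). Bhlhe40, a transcription factor needed for cytokine output and mitochondrial fitness of resident T cells, was 73.1, 75.8 and 93.3 FPKM in islet and 13.4, 27.0 and 22 FPKM in spleen (1.80, SE 0.31, adjusted p 0.00582). Without mouse 1 or mouse 3 its adjusted p was 0.0781 or 0.0648. With Cd69 and Rgs1 it made 3 called of 13 residency genes, of which 11 were positive (median 1.43); the integrin chains Itgae and Itga1, other residency markers, stayed at or under 3.14 and 1.36 FPKM and did not pass. Bhlhe40 was also the 1 called of 16 lineage factors. Tbx21, the master factor of type 1 helper cells, was 16.2, 11.0 and 25.3 FPKM in islet and 8.73, 14 and 24.1 FPKM in spleen (0.03, SE 0.37, adjusted p 0.941), and Foxp3, of regulatory cells, stayed at or under 7.80 FPKM (adjusted p 0.633).

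Of the cytotoxic granule genes, 3 were called higher in islet, each by a log2 change of at most 1.05. Nkg7, a granule membrane protein, was 1569, 1827 and 2561 FPKM in islet and 650.4, 1145 and 1259 FPKM in spleen (log2 change 0.83, SE 0.17, adjusted p 0.0132). Ctsw, a lysosomal protease of killer cells (1.05, SE 0.24, adjusted p 0.0328), and Srgn, the proteoglycan that packs granules (0.85, SE 0.22, adjusted p 0.0499), were the other two of 3 called among 11. These 3 calls were fragile: Nkg7 was lost without mouse 1 (0.156), mouse 3 (0.137) or the block (0.111), Ctsw without each mouse (0.0575, 0.108 and 0.293), and Srgn without each mouse (0.308, 0.0883 and 0.249) and the block (0.0929). With the WT origin libraries alone, Ctsw (0.0602) and Srgn (0.0877) did not pass. The granule effector genes did not pass in either direction. Gzmb was 20.6, 24.0 and 69.6 FPKM in islet and 31.0, 49.3 and 70.1 FPKM in spleen (-0.68, adjusted p 0.641), Gzma had a log2 change of -0.48 (adjusted p 0.818), and Prf1, the pore-forming perforin, one of 0.57 (adjusted p 0.673). Bcl2a1b, an antiapoptotic protein of the Bcl2 family with near-identical copies that could share its reads, was 347, 337 and 388 FPKM in islet and 55.7, 98.6 and 132 FPKM in spleen (1.82, SE 0.26, adjusted p 0.00109), the 1 called of 17 survival and death genes. Penk, the precursor of enkephalin peptides, was 123, 129 and 225 FPKM in islet and 29.3, 25.0 and 12.3 FPKM in spleen (2.66, SE 0.36, adjusted p 0.000894).

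Several genes of lymphoid and gut homing were called lower in islet. Ccr7, the chemokine receptor for lymph node entry, was 10.7, 3.84 and 14.9 FPKM in islet and 44.0, 61.0 and 54.6 FPKM in spleen (log2 change -2.63, SE 0.45, adjusted p 0.0145). Fut7, a fucosyltransferase that builds selectin ligands, was 2.79, 0.910 and 1.19 FPKM in islet and 31.3, 23.9 and 13.3 FPKM in spleen (-3.32, SE 0.43, adjusted p 0.00116; 0.667 in a fit per transcript). In both genes the lowest spleen value exceeded the highest islet value. The call of Fut7 held without any 1 mouse, and that of Ccr7 was lost without mouse 2 (0.128). Gpr15, a gut homing receptor, was 2.69, 2.05 and 0 FPKM in islet and 18.8, 15.1 and 3.27 FPKM in spleen (-2.46, adjusted p 0.0396), and its call was lost without each mouse (0.206, 0.172 and 0.14), without the block (0.188) and with the WT origin libraries alone (0.0572). Of 16 egress, homing and adhesion genes 3 were called lower and none higher, and 5 were positive and 11 negative (median -0.30). Itgb7, an integrin chain of gut homing, was 93.3, 111 and 164 FPKM in islet and 220.2, 277 and 248 FPKM in spleen (-1.20, adjusted p 0.0589).

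All 16 tested naive and central memory genes had a negative log2 change, with a median of -1.23, and 3 were called. Dapl1, a gene of less differentiated T cells, was 0, 0 and 8.62 FPKM in islet and 19, 50.4 and 18.1 FPKM in spleen (adjusted p 0.0414), and its call was lost without mouse 1 (0.28) or mouse 2 (0.21) and with the WT origin libraries alone (0.0709). Ccr7, described above, belongs to this list too. S1pr1, the exit receptor, was 9.06, 14.7 and 42.5 FPKM in islet and 42.1, 50.1 and 45.2 FPKM in spleen, and mouse 3 overlapped the spleen range (-1.45, adjusted p 0.225). Klf2, a factor that drives S1pr1 (-1.07, adjusted p 0.324), Il7r, the survival receptor (-1.40, adjusted p 0.198), and Tcf7, a memory factor (-0.39, adjusted p 0.91), did not pass. By mouse the list's median was -1.55, -1.15 and -0.54.

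Dtx1, a Notch target linked to anergy, was 2.31, 4.98 and 5.15 FPKM in islet and 12.6, 34.2 and 27.9 FPKM in spleen (log2 change -2.43, SE 0.41, adjusted p 0.0144). Trib2, a pseudokinase in the same list, was 8.50, 5.61 and 9.40 FPKM in islet and 42.6, 64.5 and 26.5 FPKM in spleen (-2.46, SE 0.41, adjusted p 0.0144). They fell in every mouse, while the other 9 of 11 anergy and Notch genes were not called and the list's median was 0.02. Dtx1 lost its call without each mouse (0.0619, 0.109 and 0.0842) and Trib2 without mouse 1 (0.0781) or mouse 2 (0.127). Ifitm1, an interferon-induced membrane protein, was 146, 116 and 154 FPKM in islet and 730.4, 441 and 266 FPKM in spleen (-1.83, SE 0.29, adjusted p 0.0112), and Ifitm2, its neighbour in the same gene cluster, was 141, 107 and 136 FPKM and 287, 348 and 292 FPKM (-1.43, SE 0.27, adjusted p 0.0441). The call of Ifitm1 was lost without mouse 1 (0.144) or mouse 2 (0.107). That of Ifitm2 was lost without each mouse (0.133, 0.209 and 0.176) and without the block (0.109). The part of non-T cells in Ifitm1 and Ifitm2 was not tested.

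**Figure D3:**
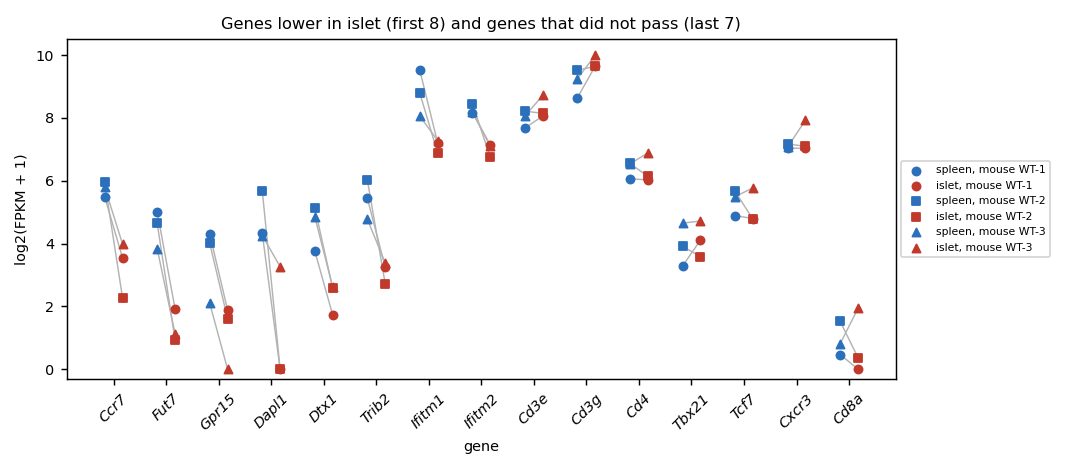
Points are log2(FPKM + 1) per library for 8 genes called lower in islet and 7 genes that did not pass, spleen in blue and islet in red, joined by mouse. The lines of the first 8 genes slope downward in each mouse, and those of Cd3e, Cd4, Tbx21, Tcf7, Cxcr3 and Cd8a do not share a direction across mice.

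Several programmes had no called gene. None of 18 interferon gamma response genes passed, with 9 positive and 9 negative and a median of -0.01, although Ifng itself rose. Cxcl10, a chemokine induced by interferon gamma, was 16.1, 24.8 and 30.3 FPKM in islet and 3.30, 5.88 and 13.8 FPKM in spleen (log2 change 1.5, adjusted p 0.165). None of 15 type I interferon genes (median -0.33), 19 cell cycle genes (0.29), 14 glycolysis genes (0.02), 14 unfolded protein response genes (0.18), 12 cholesterol synthesis genes (-0.17) or 9 SOCS and STAT targets (-0.05) passed. All genes tested had a median of -0.06.

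**Figure D4:**
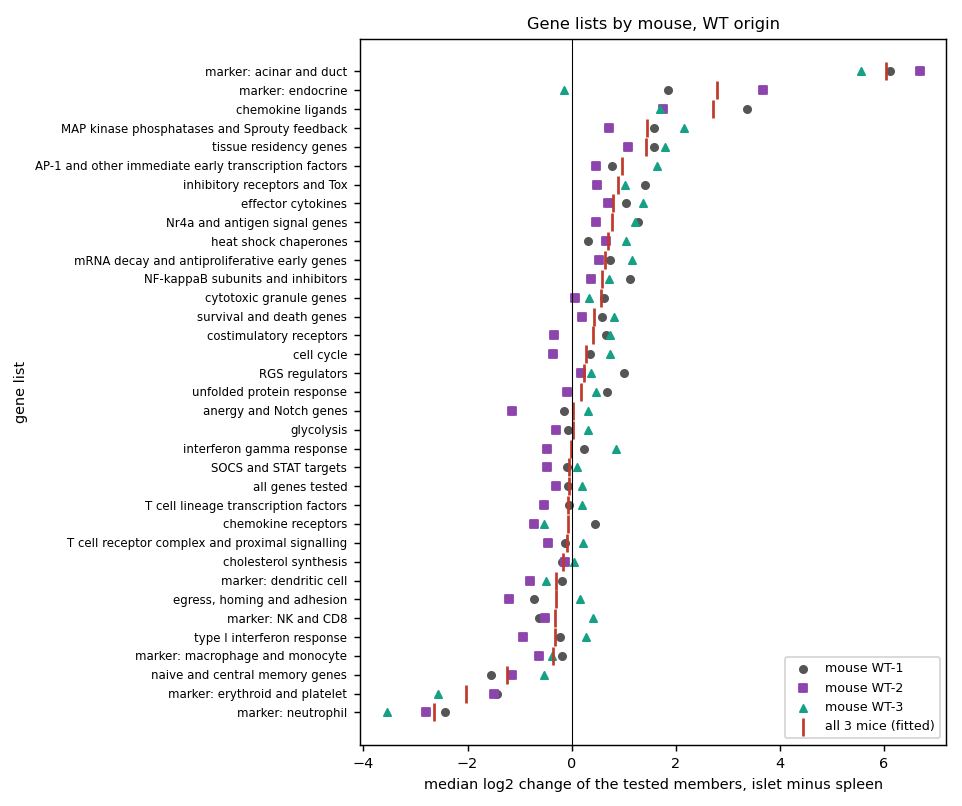
Symbols give the median log2 change, islet minus spleen, of the tested members of each list in mice WT-1, WT-2 and WT-3, and red bars give the median over the fitted values. The chemokine ligands and residency genes lie to the right in every mouse and the naive and central memory genes to the left, while all genes tested lie at -0.08, -0.30 and 0.20 in mice 1, 2 and 3.

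Transcripts of pancreatic acinar and duct cells were present in every islet library and near 0 in spleen. The summed FPKM of 26 acinar and duct markers present in the matrix was 2854, 6540 and 2034 in islet and 9.49, 6.43 and 3.88 in spleen, and 23 of the 24 tested were called higher. Clps, the colipase of pancreatic juice, was 381, 1059 and 329 FPKM in islet and 1.04, 0 and 0 FPKM in spleen (adjusted p 5.74e-07). Ctrc, Amy2b and Reg3g, a digestive protease, an amylase and a Reg family lectin of the pancreas outside the fixed marker list, were listed at 0 in every spleen library and reached 104, 18.6 and 22.2 FPKM in islet. Amy2b lost its call without mouse 2 (0.0534), and Reg3g without mouse 1 (0.153) or mouse 2 (0.147); Reg and amylase genes have close copies that can share reads. Ins2, the insulin gene expressed by beta cells, was 296, 878 and 9.82 FPKM in islet and listed at 0 in spleen, and with this spread it did not pass (adjusted p 0.0953) but did without mouse 3 (0.00279). Among 7 tested endocrine markers Iapp (38.1, 21.3 and 5.30 FPKM in islet, listed at 0 in spleen, adjusted p 0.00726) and Gcg (1.72, 20.6 and 11.0 FPKM in islet and 0, 0.506 and 0 FPKM in spleen, adjusted p 0.0256) were called. Iapp was lost without mouse 1 (0.0897) or mouse 2 (0.0913), and Gcg without mouse 2 (0.198), mouse 3 (0.24) or the block (0.0723).

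Other called genes sit beside those values. Ccl8, a chemokine known from macrophages, was 33.5, 8.50 and 31.2 FPKM in islet, Clu, a secreted chaperone, was 13.7, 21.5 and 6.74 FPKM, and Igfbp7, a secreted protein of vessels and stroma, was 17.5, 9.23 and 8.57 FPKM, all listed at 0 in every spleen library (adjusted p 0.0152, 0.0011 and 0.0246). The call of Ccl8 was lost without mouse 1 (0.153) or mouse 3 (0.148), and that of Igfbp7 without each mouse (0.2, 0.125 and 0.14) and without the block (0.126). The part of non-T cells in these 3 genes was not tested. The acinar sum was highest in mouse 2, and mouse 3 had the lowest acinar and endocrine sums. Fos, Junb, Jun, Dusp1, Hspa1a, Hspa1b, Ifng and Rgs1 had their highest islet value in mouse 3, as did Cd3e and Cd4. The FPKM total of the islet library was also highest in mouse 3 (342434, against 240426 and 282515 in mice 1 and 2). A link between these genes and the acinar sum was not tested. The largest change among the 48 higher genes outside the marker lists fell in mouse 1 for 19, mouse 2 for 8 and mouse 3 for 21, and among all genes with a positive change it fell there for 36.2%, 19.8% and 44%.

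Among the blood cell markers, 3 neutrophil and 3 erythroid genes were called lower in islet. S100a8 and S100a9, calcium-binding proteins of neutrophils, were listed at 0 in every islet library and were 128, 114 and 33.8 FPKM and 44.8, 111 and 35.2 FPKM in spleen (adjusted p 5.05e-06 and 6.17e-06). Camp, a neutrophil granule peptide, was also listed at 0 in islet (3.85, 9.19 and 13.3 FPKM in spleen, adjusted p 0.0163), and lost its call without mouse 2 (0.128) or mouse 3 (0.187). The beta globin gene Hbb-b1 was 1.99, 22.9 and 0 FPKM in islet and 321, 431 and 247 FPKM in spleen (adjusted p 0.000494), and the split with its close copy Hbb-b2, also lower, is uncertain. Without the block the adjusted p of Hbb-b1 was 0.0626. The red cell enzyme gene Car2 was lower too (adjusted p 0.0225), but not without mouse 2 (0.181) or mouse 3 (0.137). The neutrophil sum was 25.3, 0.928 and 1.68 FPKM in islet against 189, 244 and 116 FPKM in spleen, and the erythroid and platelet sum was 15.3, 124 and 6.24 FPKM against 1429, 544 and 1473 FPKM. The macrophage and monocyte list summed to 367 to 507 FPKM in islet and 504 to 665 FPKM in spleen, with 0 of 11 called, 2 positive and 9 negative. Its members Csf1r, Adgre1, Mrc1 and Itgam stayed at or under 1.54 FPKM in all 6 libraries and were not tested, so other members carried the sums. The myeloid signalling adaptors Tyrobp (log2 change -3.10, adjusted p 0.0884) and Fcer1g (-2.24, adjusted p 0.0692) did not pass, though Fcer1g did without mouse 1 (0.00443) and Tyrobp with the WT origin libraries alone (0.00565). Cd14, a coreceptor for bacterial lipopolysaccharide (3.09, 1.77 and 1.25 FPKM in islet and listed at 0 in spleen, adjusted p 0.282), and Lyz1, a lysozyme (0.99, adjusted p 0.521), had higher islet values and did not pass either. B cell markers summed to at most 9.12 FPKM and endothelial and stromal markers to at most 8.27 FPKM in any of the 6 libraries.

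**Figure D5:**
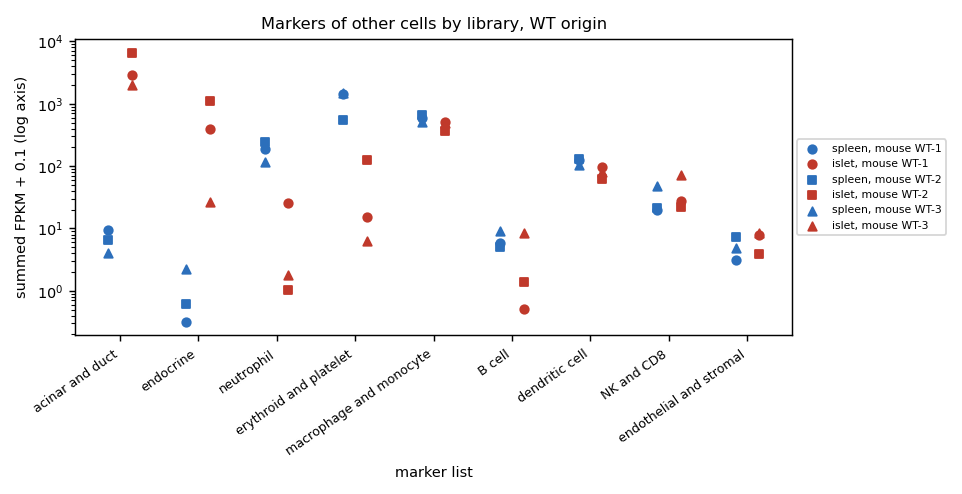
Each point is the summed FPKM + 0.1 of a marker list in 1 library, on a log axis, spleen in blue and islet in red. Acinar and endocrine sums are higher in all 3 islet libraries and neutrophil and erythroid sums in all 3 spleen libraries, while macrophage and NK and CD8 sums overlap between tissues.

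The same tissue comparison for Y16A origin, on other mice but in the same fit with a shared estimate of the spread, called 133 of 10081 genes. In both origins 68 genes were called in the same direction, of 90 and of 133. Of the 90 genes called for WT origin, 86 changed in the same direction for Y16A origin. The 90 include 25 pancreatic, 3 neutrophil and 3 erythroid markers. The share of all tested genes with the same direction in both origins was not computed. The difference between the origins' changes, tested as an interaction in the same fit, called 0 of 10081 genes (0%) with limma, with 539 at an unadjusted p under 0.05 and a smallest adjusted p of 0.413. Changes for Y16A origin are given after subtraction of that origin's own median change (0.33). The limma p-values test the difference between origins without subtraction, and the median difference was -0.16. Ifng changed by nearly the same amount in both (4.02 and 3.89, unadjusted p of the difference 0.935), as did Hspa1a (6.37 and 6.46, 0.63). Ccl5 rose by 1.85 for WT origin and by 0.52 for Y16A origin without passing there (adjusted p 0.0804), and the difference had an unadjusted p of 0.00181 that did not survive adjustment. Ctla4 (2.24 and 3.59, unadjusted p 0.0148) and Fos (5.39 and 6.92, unadjusted p 0.0107) had the larger change for Y16A origin, again without passing adjustment.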

How the data were processed

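RNA of 12 libraries was measured after cell lysis, reverse transcription, cDNA amplification and Nextera XT preparation, per the labels. The submitters' processing notes name TopHat 1.0.0, Cufflinks and mm9, and the authors deposited a matrix of FPKM per transcript. Of its 36285 entries, 99.68% matched a RefSeq symbol, and FPKM were summed to 24374 genes; 10081 that reached 1 FPKM in 3 or more of the 12 libraries were tested. RNA was amplified and FPKM are shares of a library, so abundant transcripts of other cells lower all other values. One limma fit (3.58.1, R 4.3.3, statmod 1.5.0) on log2(FPKM + 1), with the mouse as replicate block, intensity trend and robust variance, left 4 residual degrees of freedom. The pairing comes from titles that name the same mouse for both tissues; deviations from the group means of paired libraries correlated at -0.03 to 0.07. Values of p come from the fit without subtraction of the median change. Motifs were searched in RefSeq promoters (GRCm38.p6). The pipeline was tested on simulated data. The libraries, gene lists and genes were chosen with earlier results of these data known. Genes were named by rule: the 15 with the largest change in each direction among called genes with a mean of at least 5 FPKM and non-overlapping values, leaving out the marker lists, unnamed gene models and small RNA genes, up to 5 members of each list by smallest p, and a set of genes of interest. Hspa8, named beside its inducible relatives, and the genes under other observations were picked with their values known. The authors' deposited table of Y16A against WT islet was not used here. Some items are not reported here.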

Additional observations from a re-analysis of the deposited data

How the results depend on the processing

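The main count was 90 called genes, 73 higher and 17 lower. Lower calls moved most: 10 with a pseudocount of 0.1, 5 without a filter on low values, 29 with totals taken without pancreatic markers, 11 without variance trend and robust fit, 6 at transcript level, and 7 to 12 when 1 library was left out. All calls fell to 51 both without the filter and at transcript level, and higher calls to 46 and 45. Leaving out 1 library gave 63 to 70 calls, 52 to 63 of them higher, and 0 to 1 for the difference between origins. Each leave-out shared 57 genes with the main calls. Without the replicate block 82 genes were called, 75 of them shared with the main fit, and 97 with the block as a random effect. Removing the block ended 9 calls among the named genes, each given in the report, and added Tppp3 (adjusted p 0.0432). Among the named genes, 25 calls ended without the filter, 30 at transcript level and 19 without variance trend and robust fit, the last including Ccl5 (adjusted p 0.0719), Nfkbia (0.0881) and Bcl2a1b (0.0847). A fit of the 6 WT origin libraries alone called 99 genes, 82 of them shared, and among the named genes it ended 6 calls and added 3, each given in the report. No called gene among those named changed direction under any of these settings. Of the list medians 585 moved by less than the spread between mice and 43 by more. Much of this was fixed in advance. Changing the block or the variance model, or fitting WT origin alone, leaves the estimates as they were. The islet and spleen leave-outs of a mouse give the same estimates, and all 90 called genes changed in the same direction in the 3 mice. The median change itself was 0.16, and -0.19 with totals taken without pancreatic markers. At 4.59 to 7.75 M mapped fragments, a rough estimate, values under 0.436 FPKM rest on a few fragments.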

Other observations

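Some called genes lay outside the gene lists and the naming rule, and those below were picked after their values were seen. AW112010, an interferon-induced RNA of lymphocytes, was 4964, 4015 and 4211 FPKM in islet and 1181, 1838 and 1773 FPKM in spleen (log2 change 1.33, SE 0.21, limma adjusted p 0.00287), among the most abundant of the called transcripts. Phlda1, an early gene of T cell receptor signalling, was 13.5, 18.6 and 25.5 FPKM in islet and 1.78, 4.10 and 4.29 FPKM in spleen (2.06, SE 0.45, adjusted p 0.0341). Gem, a small GTPase induced by mitogens in T cells, was 5.67, 5.43 and 24.1 FPKM in islet and 0.431, 0 and 3.16 FPKM in spleen (2.35, SE 0.46, adjusted p 0.0163). In all 3 genes every islet value exceeded every spleen value.

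Meaf6, a subunit of histone acetyltransferase complexes, was 36.2, 31.1 and 53.5 FPKM in islet and 5.69, 2.53 and 16.1 FPKM in spleen (2.29, SE 0.41, adjusted p 0.00855), but its log2 change for Y16A origin was -0.80. The difference between origins had an unadjusted p of 0.000223 and did not pass adjustment over all genes. Rps14 and Rps26, small ribosomal subunit proteins with processed copies in the genome that can share reads, were called higher in islet (0.80 and 1.58, adjusted p 0.025 and 0.026).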
